A study of Mus musculus with 6 samples.

Results

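Elavl1, Elavl2, Elavl3, Elavl4, Msi1, Msi2 and Pum2 encode RNA-binding proteins that set how long mRNAs last and how often they are translated in neural cells. These 7 genes were taken by symbol from a count table of 24391 genes, and all 7 were found. RNA had been sequenced from hemibrains of newborn mice at postnatal day 0. The libraries came from 3 pups labelled Celf2 -/- (null, pups 2, 4 and 10) and 3 labelled Celf2 +/- (heterozygous, pups 6, 7 and 11). By these labels all pups carried at least 1 mutant Celf2 allele, and no wild-type pup was among them. CELF2 is an RNA-binding protein that recognises GU-rich sequence, and the contrast sets pups labelled as carrying 2 mutant alleles against pups labelled as carrying 1. The labels give no litter, sex, strain or batch, so p-values weigh the genotype difference against the spread between these pups only. By counts of 4 Y-linked genes, 3 libraries were taken as male for a covariate used further on.

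ELAVL proteins bind AU-rich and U-rich stretches of 3′ untranslated regions and mostly stabilise the mRNAs they hold. ELAVL1, also called HuR, is made in most cell types, whereas ELAVL2 (HuB), ELAVL3 (HuC) and ELAVL4 (HuD) are largely neuronal and serve as markers of postmitotic neurons. Musashi proteins are known from neural stem cells, where MSI1 represses translation of Numb, an inhibitor of Notch signalling, and MSI2 is its paralog. PUM2 binds the Pumilio recognition element in 3′ untranslated regions and recruits the machinery that shortens poly(A) tails.

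None of the 7 regulators passed the test between the genotypes, and their mean levels in null brains lay between 94.8% and 112% of the heterozygous level. Elavl3, by far the most abundant per length, had the fold change farthest from 0. Within single libraries the ratio of the ubiquitous Elavl1 to the neuronal Elavl genes was lower in all 3 null pups than in any heterozygous pup, by 0.16 log2 units, although 3 against 3 cannot reach an exact permutation p under 0.1. Elavl3 is most of the neuronal sum, so this ratio is not independent of the Elavl3 values. Pum2 was highest in 1 pup of each genotype, and its interval was the widest.

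To show which of the regulators carry sequence that the proteins of these families read, annotated 3′ untranslated regions of GENCODE M21 (GRCm38) were searched on the transcript strand for the Pumilio recognition element TGTANATA. Pum2 had 2 matches, Elavl2 and Msi2 had 3 each, Elavl4 and Msi1 had 1 each, and Elavl1 and Elavl3 had 0. Among tested genes with an annotated 3′ untranslated region (14391 genes), 26.7% had a match. The share was 43.8% among genes with a region of similar length to that of Pum2 (2861 bases) and 49.2% for that of Elavl3 (3498 bases). For the lengths of Elavl1, Elavl2, Elavl4, Msi1 and Msi2 it was 53.2%, 39.8%, 40.8%, 32.5% and 60.9%. The sequences below run 5′ to 3′ as DNA letters, with the element in capitals.
Pum2 site 1: gtttatagagaTGTATATAgaattatagtt
Pum2 site 2: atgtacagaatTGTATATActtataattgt
Elavl2 site 1: gctttgtgtgaTGTAAATAagaccttgtgt
Elavl4 site 1: gtgtgtgtatgTGTACATAtaatataaata
Msi1 site 1: cctgtatcataTGTAAATActgtgaggtga
Msi2 site 1: gcttttaaacgTGTATATAatccatgattt
Both Pum2 sites held the same core as Msi2 site 1, and so did Elavl2 site 3 and Msi2 site 3, which are not printed. A match is a description of letters and was not tested as a bound site.

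The same regions were searched for TGTTTGTT, a GU-rich run of the kind CELF proteins bind, and for the AU-rich nonamer TTATTTATT, of the kind ELAVL proteins bind. Elavl2, Elavl3, Elavl4, Msi1, Msi2 and Pum2 are given for both. The GU-rich run had 2 matches in Elavl4, 1 each in Msi1, Msi2 and Pum2, and 0 in Elavl2 and Elavl3, against 15.3% of the searched genes with at least 1. Among genes with a region of similar length that share was 25.2% for Elavl4, 16.9% for Msi1, 47.9% for Msi2, 28.1% for Pum2 and 24.2% for Elavl2. The nonamer had 1 match each in Elavl4 and Msi1, and 0 in Elavl2, Elavl3, Msi2 and Pum2, against 8.37% of the searched genes. At similar length its share was 12.8% for Elavl4, 10.1% for Msi1, 12.2% for Elavl2, 21.3% for Msi2 and 13.1% for Pum2. The examples show the GU-rich run, and for the last line the nonamer, in capitals.
Elavl4 GU-rich site 1: gctagactactTGTTTGTTtacttagactt
Msi1 GU-rich site 1: gcggctgttagTGTTTGTTgttggtttttg
Msi2 GU-rich site 1: tggtttggttcTGTTTGTTttccttggtgg
Pum2 GU-rich site 1: tcttgtttcagTGTTTGTTatggaagcctt
Elavl4 AU-rich site 1: cttgaaacacTTATTTATTtaattgcaga
Elavl3 held none of the 3 elements in its annotated region of 3498 bases. For regions of similar length the shares with at least 1 match were 33.9% for the GU-rich run and 15.2% for the nonamer. For the Pumilio recognition element it was 49.2%, so most such regions lacked each element. The share that lacked all 3 was not counted, and a tie to the fold change was not tested.

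Library totals ran from 28831997 to 36531980 counts, and every value of the 7 regulators rests on at least 1496 counts. Null pup 2 had 11.8% of its counts on the ribosomal RNA precursor Rn45s, against 0.194% to 1.27% in the other libraries. Celf2 was at 408 ± 48.5 CPM in heterozygous and 390 ± 58.4 CPM in null libraries (SD, n = 3 each), where CPM are counts scaled to a common library total with TMM factors. A total over the whole gene does not reveal a lost exon and is no check of the genotype labels. Neuron markers (1 positive and 5 negative fold changes) summed to 4320 to 5113 CPM in heterozygous and 4443 to 4790 CPM in null libraries. Astrocyte markers (0 positive, 6 negative, median log2 fold change -0.27) summed to 715 to 794 CPM and 581 to 745 CPM, and oligodendrocyte markers (1 positive, 5 negative, median -0.11) to 343 to 409 CPM and 314 to 387 CPM. Sums of microglial, endothelial, meningeal and choroid plexus markers overlapped between the groups too. Telencephalic markers (7 of 7 with positive fold changes) summed to 807 to 920.3 CPM and 1128 to 1272 CPM, whereas 8 hindbrain Hox markers (5 tested, 5 negative) summed to 9.74 to 113 CPM and 2.01 to 5.93 CPM.

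Of the 15925 genes fitted with edgeR (quasi-likelihood test), 1 passed an adjusted p of 0.05, which is 0.00628%. Of the 7 regulators, edgeR, DESeq2 and limma-voom each called 0. At an unadjusted p of 0.05, edgeR counted 1 of the 7 (Elavl3), where the share over all genes was 7.06%. The median log2 fold change of the regulators was 0.08, with 5 positive and 2 negative, against -0.001 over all genes tested and 0.02 over the 4916 genes with a mean of at least 50 CPM. The fold change farthest from 0 among the regulators was 0.17, and 83.5% of those 4916 genes lay as close to 0 or closer.

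**Figure D1:**
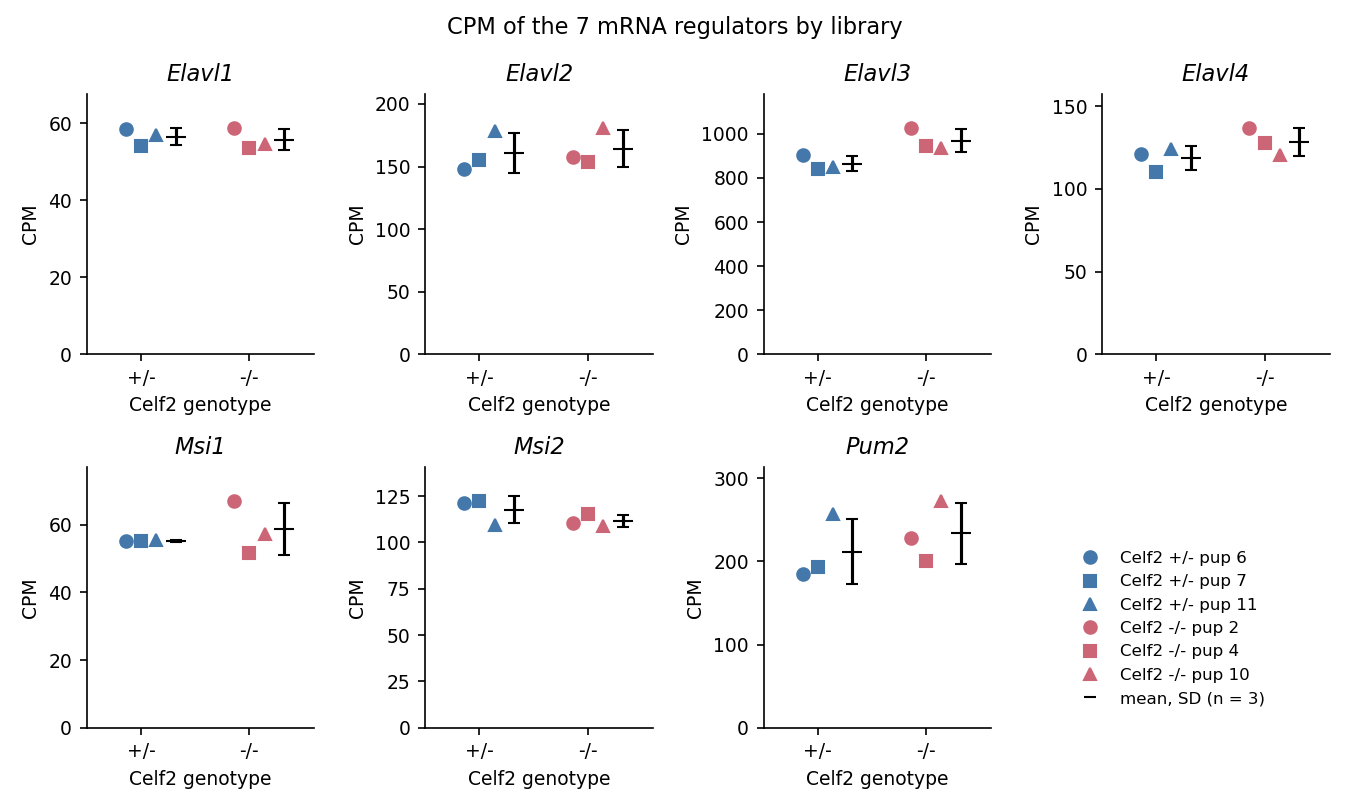
CPM of each regulator (vertical axis, from 0) in the 3 Celf2 +/- and 3 Celf2 -/- libraries, with marker shapes naming pups only and the black mark and bar giving the mean and SD. For Elavl3 the 3 null libraries (938 to 1029 CPM) lie above the 3 heterozygous ones (840 to 904 CPM), and for the other 6 genes the groups overlap.

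Elavl3, which encodes a protein used as an early marker of neurons, was at 904, 840 and 851 CPM in heterozygous pups 6, 7 and 11. It was at 1029, 943 and 938 CPM in null pups 2, 4 and 10. The groups did not overlap, and null pup 2 was highest. This was the 1 regulator of 7 with every null value above every heterozygous value, a pattern found in 6.21% of all genes tested. The means were 865 ± 34.4 and 970 ± 51.1 CPM (SD, n = 3 each). This gave a log2 fold change of 0.17, with 95% limits of 0.02 and 0.31 (SE 0.06). The unadjusted p was 0.0253 and the edgeR adjusted p was 0.639. The interval corresponds to 102% to 124% of the heterozygous level. Leaving out single libraries gave log2 fold changes of 0.12 to 0.20, with unadjusted edgeR p from 0.0207 to 0.107. That p was 0.107 without heterozygous pup 7, 0.0680 without heterozygous pup 11 and 0.0702 without null pup 2. With upper-quartile factors it was 0.0539. With library size alone, where null pup 2 is not corrected for its Rn45s reads and the median over all genes was -0.086, the Elavl3 value was 0.08 (unadjusted p = 0.376, edgeR adjusted p = 0.885). With Rn45s left out, the Elavl3 log2 fold change was 0.17, and with the Y-linked covariate it was 0.20. It was 0.17 with DESeq2 size factors, 0.16 with limma-voom and 0.15 with upper-quartile factors. Telencephalic and hindbrain markers also separated the groups, whereas the sums of neuron, astrocyte and oligodendrocyte markers overlapped with mostly negative fold changes. Their part in the Elavl3 values, and in the Elavl1 ratio given further on, was not tested. In bulk tissue fewer cells of a type and less RNA per cell cannot be told apart.

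Elavl4, the HuD gene, tied to neurite growth and stabilisation of Gap43 mRNA, was at 121, 110 and 124 CPM in heterozygous pups 6, 7 and 11. In null pups 2, 4 and 10 it was at 137, 128 and 120 CPM. Null pup 10 fell inside the heterozygous range, so the groups overlapped. For Elavl4 this gave a log2 fold change of 0.11, with 95% limits of -0.06 and 0.29 (SE 0.08, adjusted p = 0.844 in edgeR). It was 0.065 without heterozygous pup 7, 0.067 without null pup 2 and 0.025 with library size alone. In the other direction, it was 0.149 without heterozygous pup 11, 0.159 without null pup 10 and 0.165 with a Y-linked covariate. Its deviations from its own mean were nearest to those of Elavl3 among the Elavl genes, with a root mean square difference of 0.058 log2 units over the 6 libraries.

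Elavl2, the HuB gene, was at 148, 155 and 179 CPM in heterozygous pups 6, 7 and 11 and at 158, 154 and 181 CPM in null pups 2, 4 and 10. The highest value of each genotype came from pups 11 and 10, and the other 4 libraries lay between 148 and 158 CPM. For Elavl2 this gave a log2 fold change of 0.03, with 95% limits of -0.16 and 0.23 (SE 0.09, adjusted p = 0.973 in edgeR). Its sign turned with library size alone and without heterozygous pup 6 or null pup 10.

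Elavl1, the HuR gene of most cell types, varied least. It was at 58.5, 54.2 and 57.1 CPM in heterozygous pups 6, 7 and 11 and at 58.9, 53.7 and 54.6 CPM in null pups 2, 4 and 10. Both groups spanned almost the same range. For Elavl1 this gave a log2 fold change of -0.02, with 95% limits of -0.21 and 0.17 (SE 0.08, adjusted p = 0.984 in edgeR), and its sign turned in 3 of 17 other settings. The SD of its log2 CPM over the 6 libraries was 0.059, and 10.7% of genes with at least 50 CPM had a smaller one.

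The balance within the Elavl family was read from ratios within each library, which do not depend on how libraries are scaled against each other. The log2 ratio of Elavl1 to the sum of Elavl2, Elavl3 and Elavl4, in reads per kilobase, was -4.63, -4.65 and -4.64 in heterozygous pups 6, 7 and 11. In null pups 2, 4 and 10 it was -4.79, -4.81 and -4.80. The groups did not overlap, and the difference of -0.16 was larger than the SD of 0.013 in heterozygous and 0.012 in null libraries. Those SDs are smaller than the counting error of a single library (0.032 to 0.038), so they understate the error, and the counting error of the difference was 0.029. The exact two-sided permutation p was 0.1, the smallest that 3 against 3 allows, and 0.3 after Benjamini-Hochberg adjustment over the 6 ratios tested. Leaving out any 1 library gave differences between -0.17 and -0.15. As a share of the family, Elavl1 made up 3.86 ± 0.033% in heterozygous and 3.46 ± 0.028% in null libraries (SD, n = 3 each).

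Among the neuronal genes the balance overlapped between the genotypes. Elavl3 made up 70.8 ± 1.68% and 72.3 ± 1.04% of the Elavl family in heterozygous and null libraries, Elavl2 14.5 ± 1.45% and 13.5 ± 1.45%, and Elavl4 10.9 ± 0.41% and 10.7 ± 0.43% (SD, n = 3 each). The differences in log2 ratio to the other neuronal members were 0.09 for Elavl3, -0.12 for Elavl2 and -0.03 for Elavl4. Their exact two-sided permutation p-values were 0.5, 0.4 and 0.7, or 0.6, 0.6 and 0.7 after adjustment. Leaving out single libraries moved the Elavl3 difference from 0.023 (without heterozygous pup 11) to 0.15 (without heterozygous pup 6). It moved the Elavl2 difference from -0.22 (without null pup 10) to -0.041 (without heterozygous pup 11). Whether the Elavl1 ratio differed more than these ratios was not tested.

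**Figure D2:**
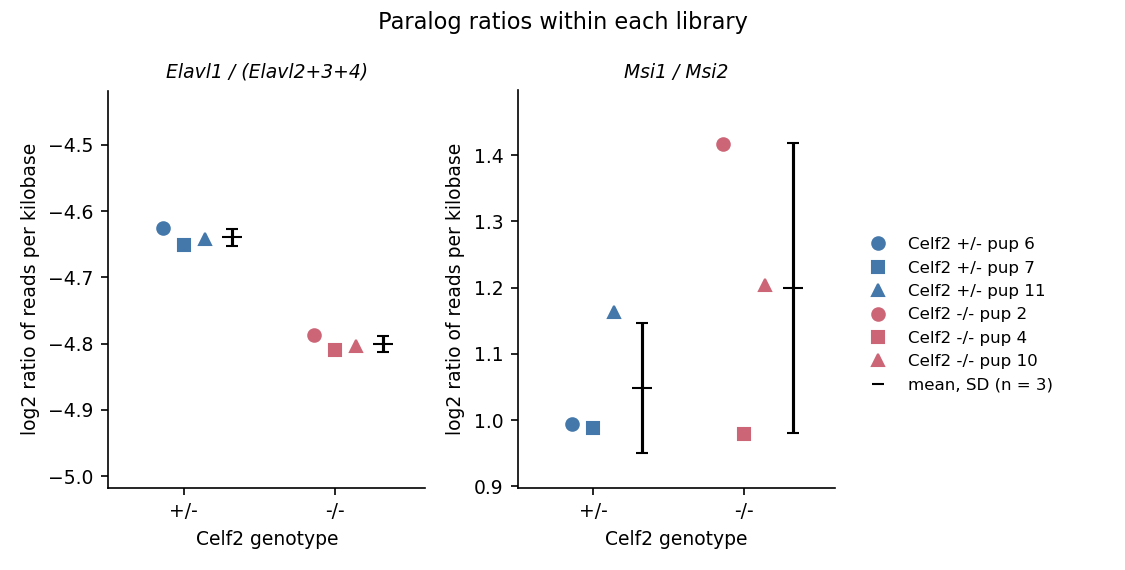
The log2 ratio of reads per kilobase between paralogs (vertical axes, each spanning the same length) in each library, with the black mark and bar giving the mean and SD of 3. The Elavl1 ratio sits near -4.64 in heterozygous and near -4.80 in null libraries, while the Msi1 ratio to Msi2 overlaps between the groups.

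Msi1, the neural stem cell Musashi gene, was at 55.1, 55.2 and 55.6 CPM in heterozygous pups 6, 7 and 11. In null pups 2, 4 and 10 it was at 67.0, 51.8 and 57.1 CPM, so the null libraries held both the highest and the lowest value. For Msi1 this gave a log2 fold change of 0.08, with 95% limits of -0.14 and 0.31 (SE 0.10, adjusted p = 0.926 in edgeR). Null pup 2, the library rich in Rn45s, was the high one, and without it the value was -0.02 (edgeR adjusted p = 0.998). Progenitor markers summed to 1067 to 1342 CPM in heterozygous and 1096 to 1352 CPM in null libraries, ranges that nearly coincide.

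Msi2 was at 122, 122 and 109 CPM in heterozygous pups 6, 7 and 11 and at 110, 115 and 109 CPM in null pups 2, 4 and 10. Heterozygous pup 11 lay among the null libraries. For Msi2 this gave a log2 fold change of -0.08, with 95% limits of -0.24 and 0.09 (SE 0.07, adjusted p = 0.902 in edgeR). It was negative in all 17 other settings tried, from -0.048 without heterozygous pup 7 to -0.13 without heterozygous pup 11 and -0.16 with library size alone. The log2 ratio of Msi1 to Msi2 averaged 1.05 ± 0.099 in heterozygous and 1.20 ± 0.22 in null libraries (SD, n = 3 each). The difference of 0.15 did not exceed the spread between null pups (exact two-sided permutation p = 0.4, adjusted 0.6). It was 0.043 without null pup 2 and 0.26 without null pup 4.

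Pum2 was at 185, 193 and 257 CPM in heterozygous pups 6, 7 and 11 and at 228, 200 and 273 CPM in null pups 2, 4 and 10. The 2 highest values belonged to pups 10 and 11, which are of different genotype. For Pum2 this gave a log2 fold change of 0.14, with 95% limits of -0.19 and 0.47 (SE 0.14, adjusted p = 0.908 in edgeR), the widest interval among the regulators. The SD of its log2 CPM over 6 libraries was 0.23, larger than that of 94.7% of genes with at least 50 CPM. The fold change was 0.30 without heterozygous pup 11 (edgeR adjusted p = 0.445) and 0.02 without null pup 10 (edgeR adjusted p = 0.986). It was 0.05 without heterozygous pup 6 and 0.08 without heterozygous pup 7. It was 0.24 without null pup 4 and 0.06 with library size alone. With pups 10 and 11 as a term, a grouping taken from earlier results of these data, it was 0.15 with 95% limits of 0.003 and 0.29 (SE 0.07, unadjusted p = 0.0458, adjusted p = 0.436 in edgeR). Pum2 is itself highest in these 2 pups, so the term removes that spread, and this p is not a fair test. In that fit 1762 of 15925 genes had an unadjusted p under 0.05, against 1124 without the term.

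Pups 10 and 11 held the 2 highest values for 2 of the 7 regulators, Elavl2 and Pum2, against 14.9% of all genes tested. The labels name no property that these 2 pups share, so any batch behind the pattern cannot be checked from them. For Msi2 the same 2 libraries were the 2 lowest, at 109 CPM each.

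**Figure D3:**
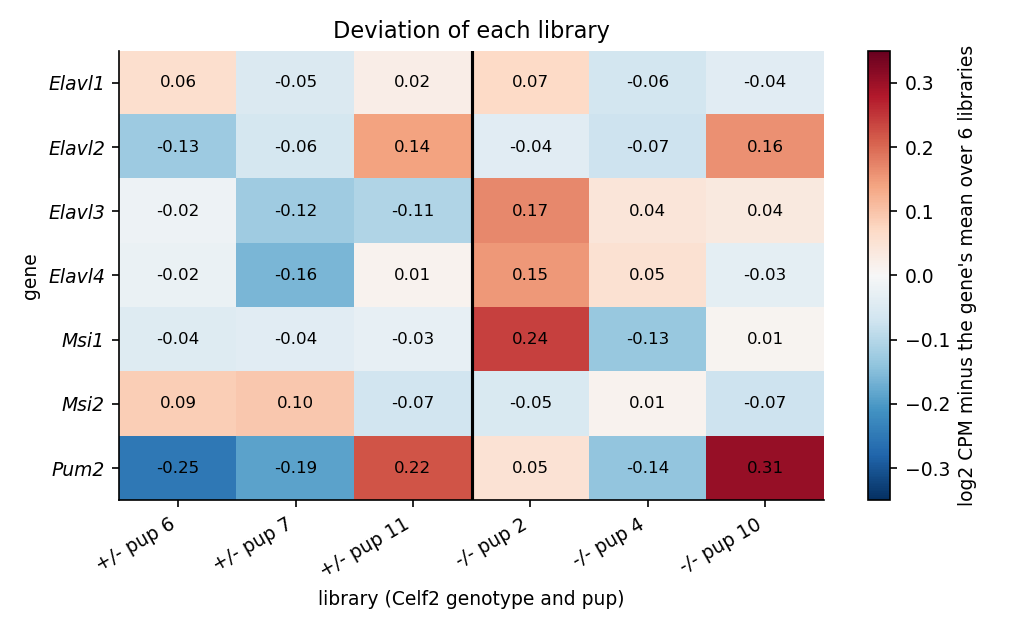
Each cell gives log2 CPM minus the gene's mean over the 6 libraries (colour scale and printed value) for the 7 regulators, with heterozygous libraries left and null libraries right of the line. Pum2 is at 0.22 and 0.31 in heterozygous pup 11 and null pup 10 and at -0.25 in heterozygous pup 6, whereas Elavl1 stays within 0.07 of its mean.

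**Figure D4:**
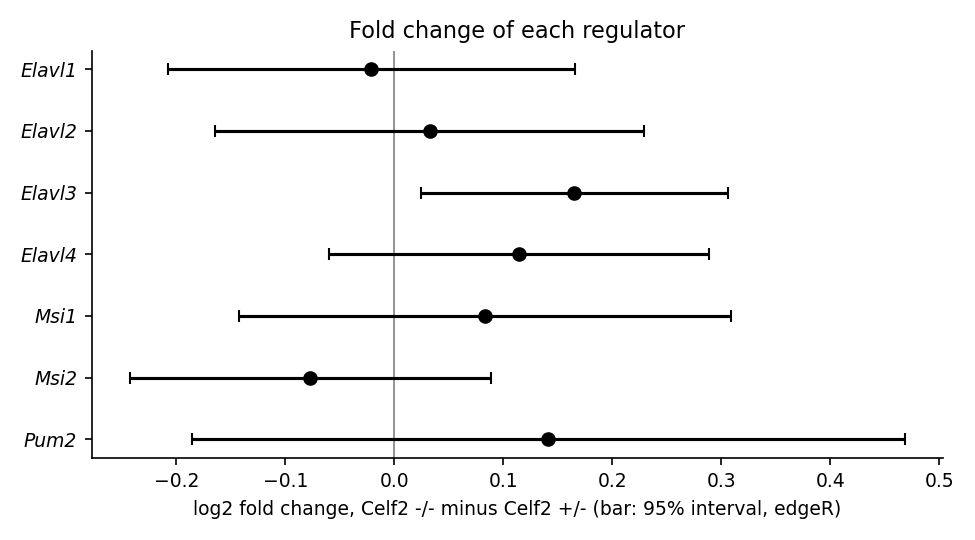
Fold change of each regulator (log2, null minus heterozygous) with its 95% interval from edgeR. The Elavl3 interval runs from 0.02 to 0.31 before adjustment over genes, and the other 6 intervals include 0.

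Levels between genes were compared per length, as RPKM (CPM per kilobase of the deposited gene length). Elavl3 stood first at 182 ± 13.8 RPKM over all libraries (SD, n = 6) and exceeded 98.7% of all genes tested. Msi1 (36.7 ± 3.36), Elavl2 (35.7 ± 3.04) and Pum2 (33.3 ± 5.36) followed with overlapping ranges. Msi1 was above Elavl2 in 3 of 6 libraries, and Elavl2 above Pum2 in 5 of 6, so their order is not settled beyond the spread. Elavl4 was at 27.6 ± 1.98 RPKM, below Pum2 in 6 of 6 libraries although the ranges overlapped. Msi2 (16.8 ± 0.90) and Elavl1 (9.31 ± 0.38) were lowest, and neither range met that of its neighbours.

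The place of Msi1 rests on its length in the table. That length was 1551 bases, or 49.5% of the longest protein-coding Msi1 transcript in GENCODE M21 (3133 bases), while for the other 6 regulators it was between 100.3% and 108.7% of the longest. With the GENCODE lengths Msi1 was at 18.2 ± 1.66 RPKM, next to Msi2 at 17.8 ± 0.95 RPKM. Its share of the 2 Musashi genes was then 50.5 ± 2.99% in place of 68.5 ± 2.54% (SD, n = 6). Whether reads in the longer end of Msi1 were counted is not given in the sources used here, and fold changes between genotypes do not depend on the length.

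**Figure D5:**
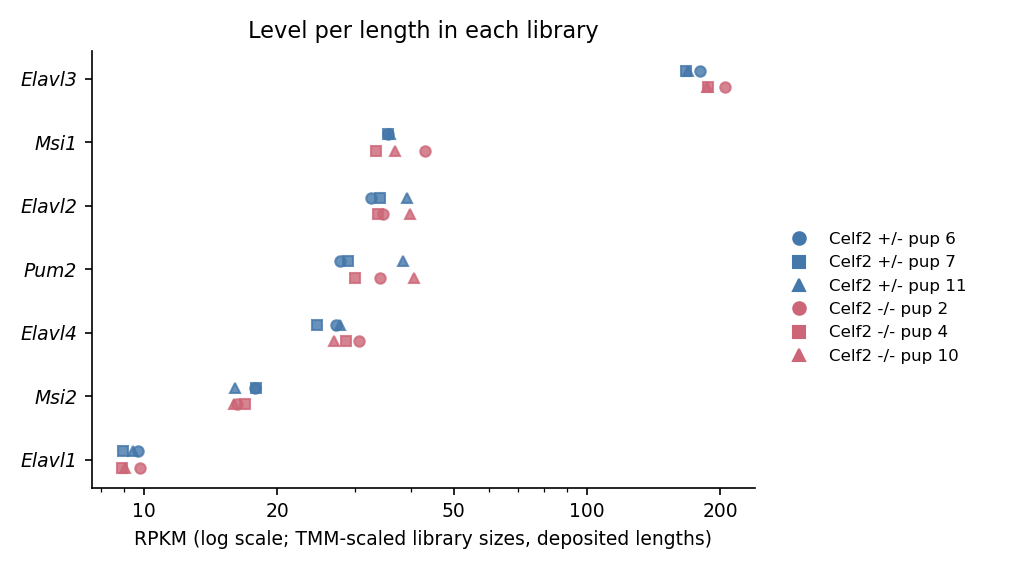
RPKM (logarithmic axis) of the 7 regulators in each library, ordered by mean, with heterozygous points above null points in each row. Elavl3 lies between 167 and 205 RPKM, apart from all others, and Elavl1 lies lowest, between 8.91 and 9.77 RPKM.

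The genes with the most similar pattern over the 6 libraries were sought among 10149 genes with at least 10 CPM, by the smallest root mean square difference of centred log2 CPM. They were Cables2 for Elavl1 (0.012), Zfp90 for Elavl2 (0.017), Cdkn1b for Elavl3 (0.014), Cdc16 for Elavl4 (0.020), Tdrd3 for Msi1 (0.014), Atp5f1 for Msi2 (0.013) and Pias2 for Pum2 (0.026). Each name describes these 6 libraries only.

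Of 9 other factors that bind AU-rich elements or control mRNA decay, 0 were called, with 6 positive and 3 negative fold changes and a median of 0.08. Zfp36, which encodes the decay factor tristetraprolin, was at 2.31, 2.63 and 3.70 CPM in heterozygous pups 6, 7 and 11 and at 8.94, 28.5 and 3.71 CPM in null pups 2, 4 and 10 (log2 fold change 2.26, edgeR adjusted p = 0.699). Null pup 4 was far above the rest and null pup 10 hardly above heterozygous pup 11. Its relative Zfp36l1 was at 42.6 ± 2.30 and 50.5 ± 7.49 CPM (SD, n = 3 each; 0.24, edgeR adjusted p = 0.728).

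Of 23 other translational regulators, 22 were tested and 0 were called (14 positive, 8 negative, median 0.04). Lin28b, a regulator of let-7 microRNA processing, was at 20.7 ± 2.13 CPM in heterozygous and 16.2 ± 1.30 CPM in null libraries (SD, n = 3 each), a log2 fold change of -0.35 (edgeR adjusted p = 0.629). Cpeb2, which binds cytoplasmic polyadenylation elements, was at 70.6 ± 4.94 and 58.4 ± 7.15 CPM (-0.27, edgeR adjusted p = 0.639). Neither gene overlapped between the groups, though both were picked by their small p. For Cpeb2 null pup 10 (66.6 CPM) lay only just below heterozygous pup 6 (67.5 CPM). The share of all genes with every null value below every heterozygous value is not given here.

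Messenger RNAs described as targets were tested in the same fit, and 0 of 12 ELAVL targets, 0 of 5 Musashi targets and 0 of 8 Pumilio targets were called. The ELAVL targets had 5 positive and 7 negative fold changes (median -0.10). Bdnf, a neurotrophin, was at 8.31, 8.48 and 7.72 CPM in heterozygous pups 6, 7 and 11 and at 4.73, 7.23 and 5.81 CPM in null pups 2, 4 and 10 (log2 fold change -0.46, edgeR adjusted p = 0.639). Ache, the acetylcholinesterase gene, was at -0.24 (edgeR adjusted p = 0.707), with overlap between the groups.

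The Musashi targets had 3 positive and 2 negative fold changes (median 0.02). Dcx, the microtubule protein of migrating neurons, was at 962, 1012 and 979 CPM in heterozygous pups 6, 7 and 11 and at 1142, 1098 and 1021 CPM in null pups 2, 4 and 10. Its log2 fold change was 0.14 (edgeR adjusted p = 0.688), and null pup 10 lay only just above heterozygous pup 7. Robo3, an axon guidance receptor, was at 5.41 ± 0.26 and 4.87 ± 1.26 CPM (SD, n = 3 each; -0.15, edgeR adjusted p = 0.936). Numb, the mRNA most tied to MSI1, had a log2 fold change of 0.04 (edgeR adjusted p = 0.983), and it was named for that role rather than by the rule.

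The Pumilio targets had 4 positive and 4 negative fold changes (median 0.02). Norad, listed as 2900097C17Rik, is a long non-coding RNA that binds Pumilio proteins in many copies of their element. It was at 518, 530 and 562 CPM in heterozygous pups 6, 7 and 11 and at 427, 437 and 527 CPM in null pups 2, 4 and 10. Null pup 10 lay inside the heterozygous range (log2 fold change -0.21, edgeR adjusted p = 0.657). Cdkn1b, the cell cycle inhibitor p27, was at 79.0, 73.9 and 73.3 CPM in heterozygous pups 6, 7 and 11, and null pups 2, 4 and 10 held 91.4, 83.1 and 83.2 CPM (log2 fold change 0.19, edgeR adjusted p = 0.682), with no overlap between the groups. Every null value above every heterozygous value was found in 6.21% of all genes tested, and Cdkn1b was picked by its small p.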

How the data were processed

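Poly(A) RNA, per the series' design text and molecule field, or total RNA, per the labels' kit, was sequenced from 6 hemibrains. The authors deposited whole-number counts per gene symbol and a length for each. Per the submitters' processing notes, the builds were mm9 and hg19 and the tools STAR, CASAVA, Picard, cutadapt, MACS2 and bedtools, without roles. How reads were counted, and whether by strand, is not given in the sources used here. Reads of overlapping genes are therefore uncertain. GENCODE M21 served for 3′ untranslated regions (the longest per gene, in 90.4% of tested genes) and RefSeq for older symbols (117 of 117 list genes found, 111 tested), and no coordinates are given because the builds differ.

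Genes kept by filterByExpr (15925, all 7 members included) were fitted with edgeR 4.0.16 in R 4.3.3 (quasi-likelihood test, TMM, robust dispersion, Benjamini-Hochberg adjustment over all genes at 0.05). The SE was taken as fold change over the root of F. Ratios used exact two-sided permutation over all 20 ways to assign 3 of 6 libraries. Similar length means 0.8 to 1.25 times. The step was tested on simulated data. All pairs of libraries differed beyond sampling noise (chi-square per gene of at least 11.2). Counting errors cover counting only. Alternatives were other scalings and filters, DESeq2 1.42.0, limma-voom (limma 3.58.1), covariates and leaving out libraries. Members and lists were chosen with earlier results of these data known. Named genes were all members, the 2 genes of each pathway list with the smallest p and a mean of at least 50 counts, and the nearest gene of each member. Exceptions are Numb and the marker lists. Some results are not reported here, among them 1 of the 6 ratios and the AU-rich and GU-rich matches of Elavl1.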

Additional observations from a re-analysis of the deposited data

How the results depend on the processing

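Of the 7 regulators 0 were called in the edgeR fit and in each of the 17 alternatives, with adjusted p-values of at least 0.342. Over all genes the count of 1 became 0 with DESeq2 size factors, a CPM minimum, no robust estimation, limma-voom and Rn45s left out, 2 with library size alone or upper-quartile factors, 3 with no low-count filter, 10 with a Y-linked covariate, 11 with pups 10 and 11 as a term and 64 with the DESeq2 Wald test. It ranged from 0 to 4 when single libraries were left out. Elavl3, Elavl4, Msi2 and Pum2 kept their sign in all 17. For Elavl1 the value was 0.015 with the Y-linked covariate, and -0.061 to 0.0053 when single libraries were left out (-0.061 without null pup 2, 0.0042 without heterozygous pup 6, 0.0053 without null pup 4). For Elavl2 it was -0.052 with library size alone, and -0.043 to 0.12 when single libraries were left out (-0.022 without heterozygous pup 6, -0.043 without null pup 10, 0.12 without heterozygous pup 11). For Msi1 it was -0.011 with library size alone, and -0.021 to 0.17 when single libraries were left out (-0.021 without null pup 2, 0.17 without null pup 4). The difference in the Elavl4 ratio was -0.059 to 0.0092 (0.0020 without heterozygous pup 11, 0.0092 without null pup 10). As TPM the mean levels were 26.1 for Elavl1, 100.2 for Elavl2, 510.3 for Elavl3, 77.1 for Elavl4, 103 for Msi1, 47.2 for Msi2 and 93.6 for Pum2. With GENCODE lengths, chosen after the data were seen, RPKM was 9.78 for Elavl1, 38.8 for Elavl2, 29.8 for Elavl4, 18.2 for Msi1 and 17.8 for Msi2. The cause of these shifts was not tested, apart from the units and lengths themselves. No paired analysis was possible because the labels give no litter or other pairing of null with heterozygous pups.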
